A study of Mus musculus with 6 samples.

Results

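Genes at both ends of the fibroblast growth factor (FGF) pathway were described: the FGF receptors Fgfr1, Fgfr2, Fgfr3 and Fgfr4, the feedback inhibitors Spry2, Spry4, Spred1 and Dusp6, and the ETS transcription factors Etv4 and Etv5. Genes were taken by their symbol from the deposited gene table, and 9 of the 10 had a row of their own among 36699 rows. Fgfr2 had none, because the table lists it in a row merged with Ctbp2. The cells were mouse A2Lox.cre embryonic stem (ES) cells, a line built for doxycycline-inducible transgenes, grown as embryoid bodies to day 3. By their titles both groups are Flag-Sp5 cells. One group of 3 libraries came from cells left without doxycycline. In the other group of 3, doxycycline was added on day 2 and Flag-Sp5 was induced for 24 hours; Sp5 is a zinc-finger factor of the Sp family. The comparison asked which genes respond to Sp5. A control of doxycycline alone was not analysed here, and an effect of the drug cannot be told apart from one of Flag-Sp5.

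FGF receptors are receptor tyrosine kinases that pass FGF signals to Ras, Raf, Mek and the kinase ERK. ERK activity turns on its own brakes: Sprouty (Spry) and Spred proteins dampen the step from receptor to Raf, and Dusp6 removes the activating phosphates of ERK. Etv4 and Etv5 are ETS factors whose genes are turned on by FGF and ERK signalling, so that the mRNA of these factors and of the brakes is widely read as a sign of pathway activity. In ES cells, FGF4 acting through Fgfr1 and Fgfr2 drives exit from naive pluripotency, and in the embryo Fgfr1 and Fgf8 are needed for mesoderm to leave the primitive streak.

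Expression was given as 1 FPKM value per group (fragments scaled to transcript length and library size), which the authors made from the 3 libraries. Values per library were not analysed here, so a group value carries no SD, and the depth is unknown. The spread between libraries enters through the authors' test alone. The 95% intervals below were computed from the statistic of that test. A gene "rose" or "fell" where the authors' deposited table gives it a q under 0.05, and is otherwise written as not called. The induced gene Sp5 went from 0.769 to 126 FPKM, the direction the labels state. The ES cell marker Pou5f1 stood at 999 and 1058 FPKM.

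Of the 9 genes with a row, the authors' test called 1 as a rise and 3 as falls, and 5 were not called. Over all tested genes 23.2% were called, 10.5% as rises and 12.7% as falls, and over tested genes with 1 FPKM or more in the higher group, as these 9 all have, 28.3% were called. Spred1 rose 1.86-fold. Spry4, Fgfr1 and Etv5 fell by 1.30-fold or less. The median log2 fold change of the 9 genes was -0.20, against -0.03 over all tested genes. The 8 genes other than Spred1 differed between the groups by 1.07-fold to 1.30-fold, and the bounds of their intervals lay within 1.53-fold of no change.

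**Figure D1:**
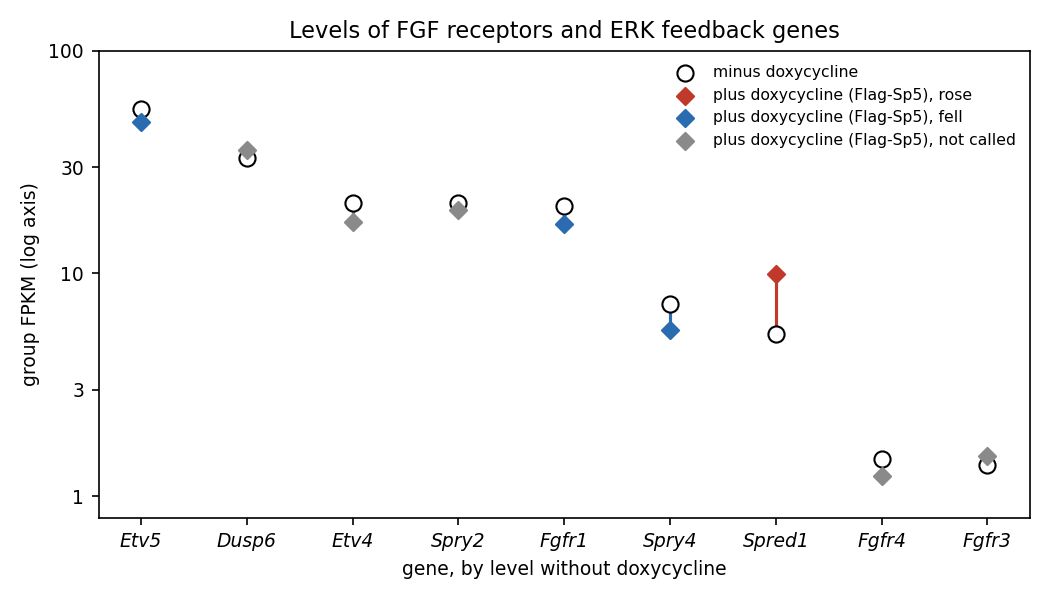
Group FPKM (log axis) of each of the 9 genes, ordered by level without doxycycline; open circles are cells without doxycycline and diamonds cells with it, coloured by the authors' call. Etv5 is highest at 55.0 and 47.8 FPKM, Fgfr3 and Fgfr4 lie below 2 FPKM, and Spred1, from 5.36 to 9.98 FPKM, has the widest gap.

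Spred1 encodes a membrane-anchored inhibitor of Ras and Raf activation, which recruits the Ras GTPase-activating protein neurofibromin. Its level was 5.36 FPKM without doxycycline and 9.98 FPKM with it (XLOC_016958, chromosome 2, 116947110 to 117008015, mm9). The 1.86-fold rise had a 95% interval of 1.68 to 2.06, and the authors' deposited table gives its q as 0, meaning a value below the smallest it prints. This interval overlapped those of 0 of the 8 other genes. A difference between genes was not tested, because their covariance over the libraries cannot be had from group values. Among tested genes at 1 FPKM or more, 6.34% had a larger change in either direction. Fewer cells that express a gene and less of its RNA per cell cannot be told apart in such bulk samples, here and below.

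Sp factors bind GC boxes, and the sequence before the start of Spred1 is therefore shown beside those of Dusp6 and Spry2, feedback genes that were not called. Each is the stretch of 250 bases before the annotated start, on the gene's strand, from RefSeq on GRCm38.p6, a later build than the mm9 of the expression table. Capitals mark a match to GGGCGG, read on either strand (CCGCCC on the other).
Spred1, chr2:117120821-117121070, plus strand: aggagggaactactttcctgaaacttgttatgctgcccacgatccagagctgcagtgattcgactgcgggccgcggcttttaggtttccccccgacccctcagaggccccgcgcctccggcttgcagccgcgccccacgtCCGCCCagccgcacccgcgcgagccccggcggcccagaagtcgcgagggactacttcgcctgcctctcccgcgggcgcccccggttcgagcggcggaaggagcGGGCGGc
Dusp6, chr10:99262981-99263230, plus strand: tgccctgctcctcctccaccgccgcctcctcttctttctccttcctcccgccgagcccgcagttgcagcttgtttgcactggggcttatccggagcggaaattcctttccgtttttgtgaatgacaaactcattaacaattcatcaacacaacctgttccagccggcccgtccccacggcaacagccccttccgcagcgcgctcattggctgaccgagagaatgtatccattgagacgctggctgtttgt
Spry2, chr14:105896820-105897069, minus strand: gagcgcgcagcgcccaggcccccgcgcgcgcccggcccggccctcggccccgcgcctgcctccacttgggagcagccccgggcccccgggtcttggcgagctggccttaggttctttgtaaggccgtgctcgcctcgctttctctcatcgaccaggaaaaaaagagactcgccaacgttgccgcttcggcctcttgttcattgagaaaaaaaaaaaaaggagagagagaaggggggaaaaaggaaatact

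The Spred1 stretch held 2 matches, 1 on the other strand at 110 to 105 bases before the start and 1 on the gene's strand at 7 to 2 bases before it. The Dusp6 and Spry2 stretches held none. The letters G and C made up 70.8% of the Spred1 stretch, 56.4% of that of Dusp6 and 62.4% of that of Spry2. Promoter entries matched 7 of the 10 genes with 9 starts, and Fgfr1, Spry4 and Etv4 had no entry. A GGGCGG match was present for 4 of these 7 genes: Spred1, which rose, Etv5, which fell, and Fgfr3 and Fgfr4, which were not called. Etv5 had 3 matches at 1 start and none at its other start. The matching stretches of Etv5, Fgfr3 and Fgfr4 overlap annotated exons. Of 32851 promoters of the same length 32.7% held a GGGCGG match, and of the 10264 promoters of tested genes at 1 FPKM or more 59.1% did. These shares are per promoter, while the count of 4 is per gene over any of its starts. GT boxes (GGGTGG), ETS cores (CCGGAA) and Tcf/Lef cores (CTTTGA), counted on both strands, were absent from the 3 stretches shown. Those shares over promoters of tested genes were 33.7%, 21.8% and 10.2%. The 4 motifs have different letters, so no match counts for more than 1 of them, though neighbouring matches may overlap. A match describes the letters only, and binding was not measured here.

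Spry4 and Spry2 encode Sprouty proteins, cytoplasmic brakes of receptor tyrosine kinase signalling. Spry4 stood at 7.28 FPKM without doxycycline and 5.59 FPKM with it (XLOC_014742). It fell 1.30-fold (95% interval 1.17 to 1.44, q = 6.06e-06 in the authors' deposited table). Spry2 stood at 20.6 and 19.2 FPKM (XLOC_010406, chromosome 14, 106291166 to 106296036, mm9) and was not called. Its ratio of levels with and without doxycycline was 0.932 (95% interval 0.846 to 1.03, q = 0.365 in the authors' deposited table).

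Spred1 and Spry4 moved in opposite directions, and their order of level turned over. The level of Spred1 per length was 0.737 times that of Spry4 without doxycycline and 1.78 times with it, a 2.42-fold change of the ratio that has no test here. Dusp6 encodes a cytoplasmic phosphatase selective for ERK and was the second highest of the 9 genes, with 33.1 FPKM without doxycycline and 35.7 FPKM with it (XLOC_002451, chromosome 10, 98725865 to 98730122, mm9). Its ratio was 1.08 (95% interval 0.989 to 1.18, q = 0.243 in the authors' deposited table), so that a rise above 1.18-fold lies outside the interval. When the groups were scaled to equal summed FPKM, a choice made after seeing the data, the adjusted p of Dusp6 was 0.036.

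**Figure D2:**
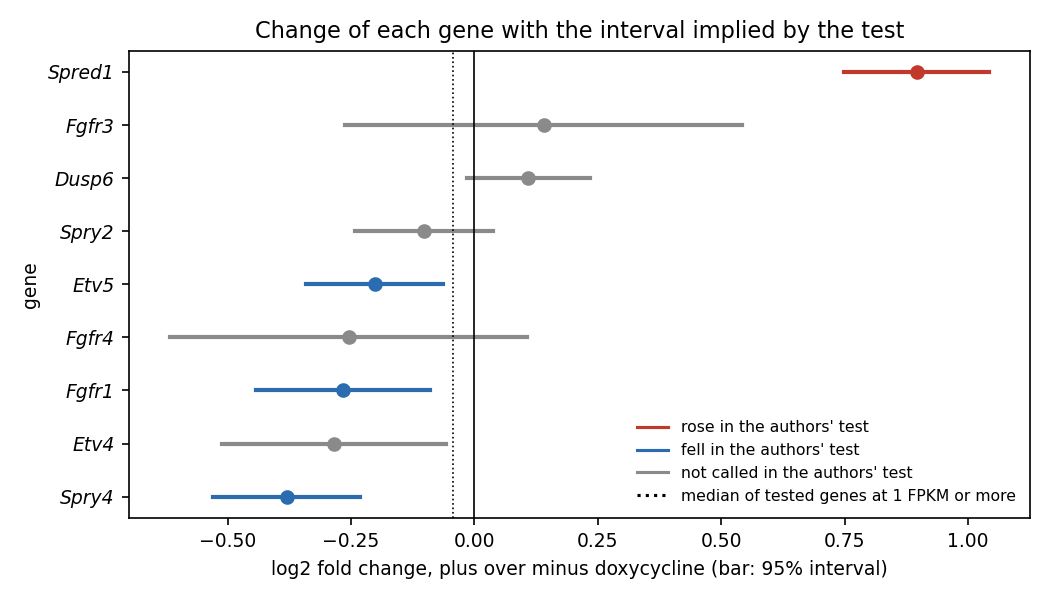
Log2 fold change of each of the 9 genes (points) with the 95% interval implied by the authors' test (bars), with a solid line at 0 and a dotted line at -0.04, the median of tested genes at 1 FPKM or more. Spred1 at 0.90 stands apart from the others, which lie between -0.38 (Spry4) and 0.14 (Fgfr3).

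Fgfr1, the receptor needed for mesoderm formation, stood at 20.1 FPKM without doxycycline and 16.7 FPKM with it (XLOC_030804, chromosome 8, 26624126 to 26686186, mm9). It fell 1.20-fold (95% interval 1.06 to 1.36, q = 0.017 in the authors' deposited table). The call was lost when changes were centred on the median of tested genes at 1 FPKM or more (adjusted p = 0.0583, recomputed over all genes from the statistic in the authors' deposited table), an alternative added after seeing the data. Over its other alternatives the adjusted p ran from 0.0136 to 1. Its locus is shared with the predicted gene Gm16159 (0.338 and 0.259 FPKM), and their reads may not be separable.

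Fgfr3 and Fgfr4 are further receptors of the family, and both were low. Fgfr4 stood at 1.47 and 1.24 FPKM without and with doxycycline (XLOC_007894, chromosome 13, 55254001 to 55270120, mm9), a ratio of 0.838 (95% interval 0.653 to 1.08, q = 0.39 in the authors' deposited table). Fgfr3 stood at 1.38 and 1.52 FPKM (XLOC_023941, chromosome 5, 34064373 to 34079716, mm9), a ratio of 1.10 (95% interval 0.834 to 1.46, q = 0.752 in the authors' deposited table). Neither was called, and these were the widest intervals of the 9 genes. The 2 receptors changed places in the order of level between the groups, with no spread to set against that order.

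Fgfr1 made up most of the receptor mRNA that could be measured. Of the summed FPKM of Fgfr1, Fgfr3 and Fgfr4, 23.0 without doxycycline and 19.5 with it, Fgfr1 took 87.6% and 85.9%, Fgfr4 took 6.41% and 6.34%, and Fgfr3 took 6.00% and 7.79%. Fgfr2, a receptor known from primitive endoderm, is missing from these shares. The merged row of Ctbp2 and Fgfr2 (XLOC_030466) stood at 94.1 and 68.4 FPKM and was not called (q = 0.666 in the authors' deposited table). It covers a locus of 3.01 Mb on chromosome 7 (137305965 to 140316037, mm9) that 41 rows share, so no level can be given to Fgfr2. Gene rows do not separate the splice forms of a receptor that differ in ligand binding.

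Etv5 and Etv4 encode ETS factors of the PEA3 group. Etv5 had the highest level of the 9 genes in both groups, 55.0 FPKM without doxycycline and 47.8 FPKM with it (XLOC_012231, chromosome 16, 22381382 to 22439792, mm9). It fell 1.15-fold (95% interval 1.04 to 1.27, q = 0.0221 in the authors' deposited table), and like Fgfr1 it was not called after centring on the median (adjusted p = 0.0962, with a range of 0.0178 to 1 over the other adjustments). Etv4 stood at 20.7 and 17.0 FPKM (XLOC_005932, chromosome 11, 101631056 to 101646685, mm9) and was not called. Its ratio was 0.821 (95% interval 0.702 to 0.961, q = 0.0588 in the authors' deposited table), and with p-values adjusted over genes at 1 FPKM or more its adjusted p was 0.0483. The level of Etv5 was 2.65 times that of Etv4 without doxycycline and 2.81 times with it.

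**Figure D3:**
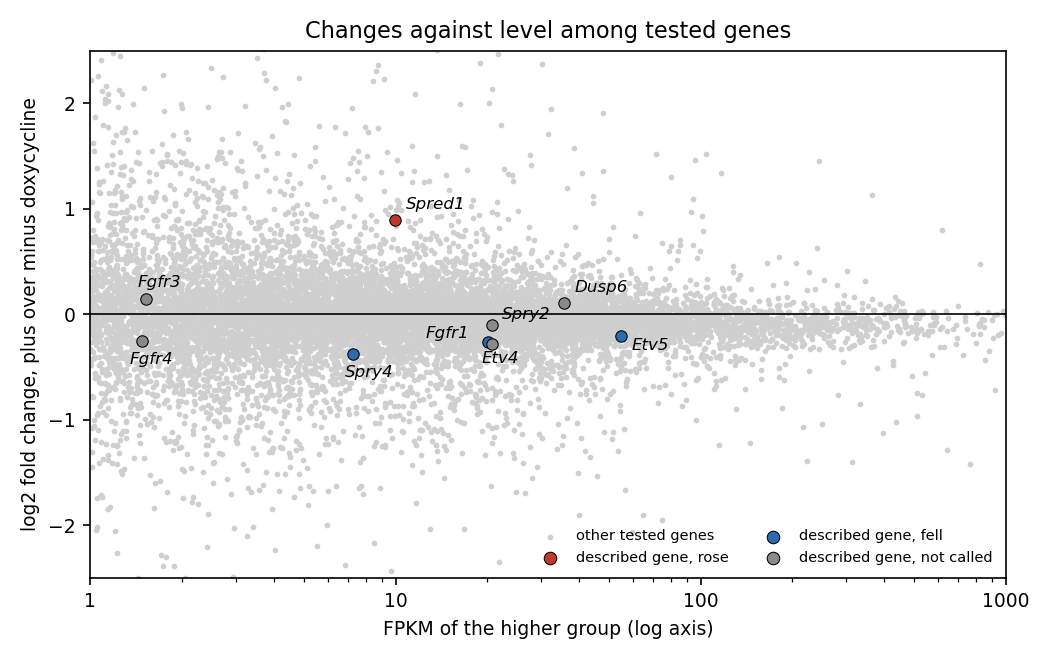
Log2 fold change against the FPKM of the higher group (log axis), for tested genes from 1 to 1000 FPKM within 2.5 of no change (grey) and for the 9 described genes (coloured by the authors' call). Spred1 lies above most of the cloud at its level, and the other 8 lie inside it.

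The list of other ERK inhibitors moved in both directions. It also holds inhibitors of Ras and phosphatases of other MAP kinases, such as Dusp16, so its counts are not of ERK inhibitors alone. The authors' test called 3 of 23 tested genes of this list as rises and 6 as falls, and the other 14 had no call (39.1% called, against 23.2% of all tested genes), with a median log2 fold change of -0.09. Of the 22 at 1 FPKM or more 9 were called, against 28.3% of all tested genes at that level. Spred3, a relative of Spred1, went the other way and fell 1.69-fold, from 7.84 to 4.64 FPKM. Dusp1, an inducible nuclear phosphatase of MAP kinases, fell 1.59-fold (13.5 to 8.50 FPKM). Dusp16, a phosphatase of the JNK and p38 kinases, fell 1.54-fold (6.21 to 4.02 FPKM), and Dusp14, a small atypical phosphatase, rose 1.5-fold (1.92 to 2.90 FPKM).

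Several paralogs of the described genes were named after their values were seen. Spry1, another Sprouty gene, fell 1.30-fold (13.7 to 10.5 FPKM), by the same fold as Spry4. Spred2 stood at 9.57 and 9.96 FPKM and was not called. Among phosphatases, Dusp9, which is selective for ERK like Dusp6, rose 1.29-fold (21.5 to 27.7 FPKM) and Dusp4, a nuclear phosphatase, rose 1.44-fold (11.8 to 16.9 FPKM), while Dusp7 (9.41 and 8.40 FPKM) was not called. Il17rd, a membrane inhibitor of FGF signalling also known as Sef, stood at 8.05 and 7.57 FPKM and was not called. The most abundant uncalled genes of the list were Pebp1, a Raf kinase inhibitor (418 and 431 FPKM), and Lztr1, which promotes Ras degradation (35.4 and 37.0 FPKM).

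The kinases and adaptors between receptor and ERK were mostly not called. The authors' test called 2 of 20 tested genes as rises and 1 as a fall, and the other 17 had no call (15% called, against 23.2% of all tested genes), with a median log2 fold change of -0.01. All 20 were at 1 FPKM or more, where 28.3% of tested genes were called. Mapk3, which encodes an ERK kinase, stood at 106 FPKM without doxycycline and 114 FPKM with it and had no call. Braf, a Raf kinase, fell 1.55-fold from 6.67 to 4.31 FPKM. Sos2, a Ras exchange factor, rose 1.45-fold to 2.14 FPKM and Ksr1, a scaffold of the cascade, 1.43-fold to 1.16 FPKM, both named after their values were seen. Each of these 3 called rows shares its locus with another row, so reads may be shared.

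Among other ETS genes and genes that answer to ERK, 2 of 21 tested rose and 3 fell by the authors' deposited table, while the other 16 had no call (23.8% called, close to the 23.2% of all tested genes), with a median log2 fold change of -0.04. Of the 14 at 1 FPKM or more 4 were called, against 28.3% of all tested genes at that level. Egr1, an immediate early zinc-finger gene, fell 2.85-fold from 4.08 to 1.43 FPKM, and Ier3, another early response gene, rose 1.5-fold from 4.39 to 6.59 FPKM. The row of Egr1 shares its locus. Ier2 (42.1 and 47.2 FPKM) and Erf, an ETS repressor controlled by ERK (17.3 and 18.3 FPKM), were not called. Phlda1 and Ccnd1, named after their values were seen, fell 1.33-fold and 1.16-fold, and Fos rose but stayed under 1 FPKM. Etv1, the third PEA3 gene, stood at 5.92 and 11.5 FPKM with status FAIL, so it was not tested.

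The FGF ligand genes were called in both directions. Among 14 tested ligands the authors' test called 3 rises and 4 falls, and 7 had no call (50% called, against 23.2% of all tested genes). The 7 called ligands are the 7 at 1 FPKM or more, where 28.3% of all tested genes were called. Log2 fold changes of the called ligands ran from -1.67 (Fgf5) to 4.34 (Fgf17), beside values from -0.27 to 0.14 for the 3 receptors with a row, and the difference between ligands and receptors was not tested. Fgf17, Fgf18 and Fgf8 rose, to 17.5, 1.69 and 16.6 FPKM, and Fgf5, Fgf15 and Fgf4 fell, to 17.8, 11.5 and 15.3 FPKM. The row of Fgf15 shares its locus with another row, so reads may be shared. Of the 7 calls, 5 are in rows with a locus and a gene name of their own.

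**Figure D4:**
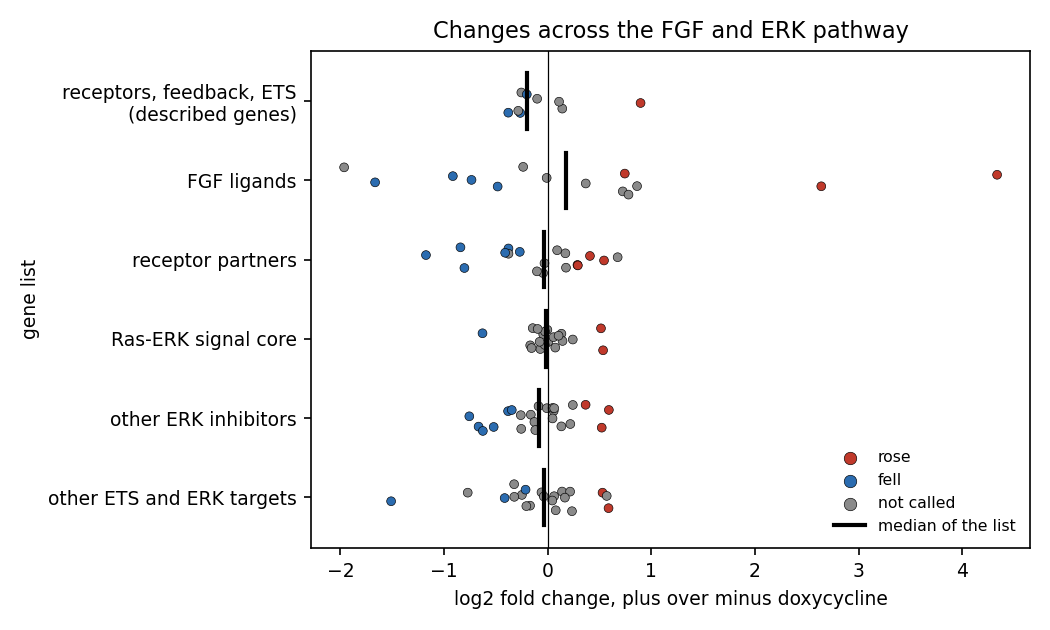
Log2 fold change of every tested gene in the described set and in 5 lists of the pathway (points, coloured by the authors' call), with the median of each list as a black bar. The receptors and feedback genes lie between -0.38 and 0.90, and the called FGF ligands reach from -1.67 to 4.34; the lowest ligand point, at -1.96, is the uncalled Fgf9 (0.222 and 0.057 FPKM).

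Markers of the cell types an embryoid body can hold moved between the groups, beside the values above. Their counts stand against 10.5% rises and 12.7% falls over all tested genes. Over tested genes at 1 FPKM or more, as all tested epiblast and primitive endoderm markers are, the shares were 11.5% and 16.8%. Of 10 tested genes of the primitive streak and early mesoderm, 7 rose and 1 fell in the authors' deposited table, and their summed level went from 14.9 to 153 FPKM. Most of the sum with doxycycline is the gene T, which went from 0.745 to 103 FPKM. In primitive endoderm, 5 of 10 tested markers fell, among them Gata6 and Sox7, and the sum was 108 and 88.4 FPKM. Of 8 tested epiblast markers 1 rose and 5 fell (sum 1760 and 1564 FPKM), and of 4 tested neural markers 3 fell (sum 15.2 and 5.67 FPKM). Most of the epiblast sum is Pou5f1, which was not called (999 and 1058 FPKM). Most of the neural sum is Nes (13.8 and 5.24 FPKM). The epiblast falls include Fgf5, which is also counted among the ligands above. Before embryoid body culture the ES cells grew on fibroblast feeders. Fibroblast markers had 3 rises and 3 falls among 11 tested, with a sum of 19.4 and 20.0 FPKM. In these lists 0 tested markers were at 0 in either group. Markers that were not tested are left out of the counts and sums. Among them are the epiblast marker Dnmt3b, deposited at 0 and 273 FPKM with status HIDATA, and the primitive endoderm marker Dab2. Dab2 stood at 85.2 and 56.6 FPKM with status FAIL. The part of these cell types in the changes of the receptors and feedback genes was not tested.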

How the data were processed

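RNA of 6 libraries in 2 groups of 3 was captured with oligo-dT and sequenced, per the labels' protocols, which mention no strand marking. Per the submitters' processing notes, the tools were Bowtie with TopHat2 2.0.8, Picard, and Cuffdiff with Cufflinks 2.0.2, on build mm9. Which annotation, scaling and filters were applied is not given in the sources used here. The authors deposited 1 table with an FPKM value per group, log2 fold changes, a test statistic (a score) and p-values with q-values, per the file headers. The labels do not say whether replicates were separate cultures, so p-values may measure technical spread.

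A call is status OK with q under 0.05, which matched the authors' mark in all 36699 rows, of which 18537 were tested. Deposited p-values equalled the two-sided normal tail of the statistic in 18284 tested rows where neither group was at 0, with gaps up to 2.84e-06. The statistic had the same sign as the log2 fold change in 0 of these rows, so sizes without sign were used. The standard error of a log2 fold change was therefore taken as the size of that change divided by that of the statistic. The 95% intervals follow from it. The code for this was tested on simulated data, which does not test the assumption itself. Starts in the table were taken to count from 0: read so, the lengths of 10178 of 18362 genes match GENCODE vM21. The same count for starts from 1 was not made. Folds have no pseudocount. Alternatives were a q under 0.01, a minimum fold of 1.5, p-values adjusted over genes at 1 FPKM or more, Bonferroni adjustment, rows with a locus of their own, pseudocounts of 1 and 0.1, and 2 other scalings. Computations used scipy 1.17.1, pandas 2.3.3 and numpy 2.4.6 in Python 3.11.15.

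The genes, lists, tests and alternatives were chosen with earlier results of these data known. From the 10 lists beyond the described genes, a gene was named when called at 1 FPKM or more and at least 1.5-fold (up to 8 a list), or when among the 2 highest uncalled. One gene that this rule names is not reported here. Where another gene is named, this is said, or it belongs to a marker list.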

Additional observations from a re-analysis of the deposited data

How the results depend on the processing

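Spred1 and Spry4 kept their direction and their call under each change of threshold, adjustment or scaling except the minimum fold of 1.5, which Spry4 does not reach. The count of called genes among the 9 was 4. It was 2 with q under 0.01, 2 with Bonferroni adjustment, 2 after centring on the median and 1 with the minimum fold. It was 5 (1 rise and 4 falls) with p-values adjusted over genes at 1 FPKM or more, and after scaling to equal sums 3, where the balance of 1 rise and 3 falls turned to 2 rises and 1 fall. The counts among genes at 1 FPKM or more were the same, since all 9 are above it. Over all genes, 4306 calls became 2084 with the minimum fold and 1664 with Bonferroni adjustment. The balance of 1949 rises and 2357 falls became 2394 and 1789 after scaling to equal summed FPKM. That scaling moved log2 fold changes by 0.06 and centring by 0.04. Both tests on rescaled values were added after seeing the data.

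With q under 0.01 the list counts were 6 of 10 called for receptor partners and 3 of 5 for ETS and ERK targets. With the minimum fold they were 3 for receptor partners, 1 for the signal core, 4 for other ERK inhibitors and 2 for ETS and ERK targets, and with Bonferroni adjustment 4 for receptor partners and 2 for ETS and ERK targets. With rows of their own locus only, which leaves out rows by construction, they were 0 for the signal core and 3 for ETS and ERK targets, and both rescaled tests gave 5 for the signal core. The medians of 4 lists changed sign. After centring and after scaling to equal sums, they were 0.0057 and 0.0224 for receptor partners, 0.0292 and 0.0459 for the signal core, and 0.0058 and 0.0225 for ETS and ERK targets; for fibroblast markers, scaling gave 0.0079. The cause of these moves was not tested. With a pseudocount of 1 FPKM the log2 fold change of Spred1 was 0.79, and the other 8 genes moved by less than their standard error. Without Fgfr1, the share of Fgfr4 in the receptor sum was 51.7% without doxycycline and 44.9% with it.

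No paired analysis was possible because the table holds 1 value per group, and for the same reason leaving out single libraries was not run. By their titles the libraries are numbered 2, 3 and 4 without doxycycline and 1, 3 and 4 with it. Whether equal numbers mark pairs is not known here. Depth is unknown, so no detection floor can be given. The intervals of Fgfr3 and Fgfr4 were the widest of the 9 genes, at the lowest levels.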

Other observations

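The mRNAs of proteins that work beside FGF receptors at the cell surface, and of the enzymes that make their heparan chains, went in both directions. Among 18 tested receptor partners the authors' test called 4 rises and 6 falls, and 8 had no call (55.6% called, against 23.2% of all tested genes), with a median log2 fold change of -0.04. Of the 16 at 1 FPKM or more 9 were called, against 28.3% of all tested genes at that level. Glypicans are membrane-bound heparan sulfate proteoglycans that help FGF bind its receptor, and 3 of the 4 in the list fell while 1 rose. Gpc1 fell 2.26-fold from 11.9 to 5.28 FPKM, Gpc3 fell 1.79-fold from 72.7 to 40.5 FPKM, and Gpc4 fell 1.75-fold from 16.1 to 9.20 FPKM. Gpc6, named after its values were seen, rose 1.33-fold from 0.916 to 1.22 FPKM. The rows of Gpc1 and Gpc3 share a locus with another row. Sdc1, a syndecan (21.5 and 20.9 FPKM), and Ext1, an enzyme of heparan sulfate synthesis (16.2 and 18.2 FPKM), were not called.

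Other partners were named after their values were seen. Hs2st1 and Hs6st1, enzymes that add sulfate to heparan chains, went apart: Hs2st1 rose 1.22-fold (7.98 to 9.76 FPKM) and Hs6st1 fell 1.33-fold (11.3 to 8.47 FPKM). Fgfrl1, a receptor-like protein without a kinase domain, rose 1.22-fold (3.26 to 3.97 FPKM). Klb, the co-receptor of endocrine FGFs, fell 1.30-fold (1.97 to 1.52 FPKM), and Flrt3, a membrane protein that binds FGF receptors, fell 1.21-fold (8.06 to 6.68 FPKM), at a locus it shares.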
